A study of Mus musculus with 45 samples.

Results

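The 4 fibroblast growth factor (FGF) receptor genes Fgfr1, Fgfr2, Fgfr3 and Fgfr4, and 6 genes that lie downstream of the receptors as targets or brakes, Spry1, Spry2, Spry4, Dusp6, Etv4 and Etv5, were followed through the conversion of mouse fibroblasts to muscle cells. They are 10 of the 35675 genes measured and were taken by name, though with earlier results of these data known. All 10 were among the 17325 genes that passed the filter on low counts. RNA was measured by bulk sequencing in 45 libraries, 3 in each of 15 groups, and every group carried the background Tg:Pax7-nGFP/C57BL6;DBA2, in which nuclear GFP reports on the muscle stem cell gene Pax7. Mouse embryonic fibroblasts (MEFs) with a doxycycline-inducible MyoD, the muscle-determining transcription factor, were taken untreated, after 2, 4, 6, 8 and 10 days of doxycycline (MyoD alone), and after the same days of doxycycline with the small molecules F/R/C. The labels call the first arm myotubes and the second muscle fibers with progenitor cells. They do not spell out F/R/C, which in the published protocol are forskolin, the TGF-beta receptor inhibitor RepSox and a GSK3 inhibitor. The other 4 groups were bulk induced myogenic progenitor cells (iMPCs), sorted Pax7-GFP-positive iMPCs, bulk primary myoblasts from skeletal muscle and sorted Pax7-GFP-positive myoblasts. The bulk iMPCs are described as established clones that no longer need doxycycline and are labelled as kept in F/R/C medium with 13 days of doxycycline and F/R/C. The number of clones, the FGF content of any medium and the construct that carries MyoD are not given in the sources used here.

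FGF receptors are tyrosine kinases that bind FGFs together with heparan sulfate at the cell surface and switch on the RAS, MEK and ERK cascade. ERK signalling raises transcription of the Ets factors Etv4 and Etv5 and of its own brakes, among them the Sprouty proteins and Dusp6, a phosphatase that inactivates ERK, so these transcripts are widely used as readouts of the pathway. In muscle, FGF signals keep myoblasts dividing and hold back differentiation. Fgfr1 and Fgfr4 are the main receptors of satellite cells and myoblasts, and Spry1 is known for its part in satellite cell quiescence.

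In the GENCODE annotation of GRCm38 the genes lie on different chromosomes: Fgfr1 on chromosome 8 (25513654-25575718), Fgfr2 on 7 (130162451-133123350, a span that includes 1 very long transcript model), Fgfr3 on 5 (33721674-33737068), Fgfr4 on 13 (55152640-55168759), Spry1 on 3 (37639947-37644598), Spry2 on 14 (105891947-105896819), Spry4 on 18 (38586247-38601415), Dusp6 on 10 (99263231-99267489), Etv4 on 11 (101769742-101785371) and Etv5 on 16 (22381309-22439719). Fgfr3, Fgfr4 and Spry1 were the members called higher than in MEFs after 2 days of MyoD in both arms, 3 of 10, where 12.3% of all genes tested were called higher with MyoD alone and 11.5% with F/R/C. Their promoters are shown for that reason, as RefSeq gives them on GRCm38.p6, from 250 bases before to 50 bases after the start, all on the plus strand: chr13:55152568-55152867 for Fgfr4, chr5:33721474-33721773 for Fgfr3 and chr3:37639697-37639996 for Spry1. MyoD binds E-boxes, and matches to CANNTG, a pattern that reads the same on both strands, are in capitals.
Fgfr4: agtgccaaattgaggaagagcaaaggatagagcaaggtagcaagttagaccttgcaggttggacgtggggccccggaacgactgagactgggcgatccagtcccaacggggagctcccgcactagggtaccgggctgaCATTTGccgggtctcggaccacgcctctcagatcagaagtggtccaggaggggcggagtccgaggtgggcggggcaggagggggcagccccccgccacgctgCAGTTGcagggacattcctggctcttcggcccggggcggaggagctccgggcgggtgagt
Fgfr3: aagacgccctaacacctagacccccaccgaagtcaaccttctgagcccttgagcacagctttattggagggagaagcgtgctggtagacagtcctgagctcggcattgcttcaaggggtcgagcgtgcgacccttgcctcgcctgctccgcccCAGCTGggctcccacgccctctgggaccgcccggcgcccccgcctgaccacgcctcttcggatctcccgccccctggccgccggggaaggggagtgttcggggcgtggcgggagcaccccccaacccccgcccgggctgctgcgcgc
Spry1: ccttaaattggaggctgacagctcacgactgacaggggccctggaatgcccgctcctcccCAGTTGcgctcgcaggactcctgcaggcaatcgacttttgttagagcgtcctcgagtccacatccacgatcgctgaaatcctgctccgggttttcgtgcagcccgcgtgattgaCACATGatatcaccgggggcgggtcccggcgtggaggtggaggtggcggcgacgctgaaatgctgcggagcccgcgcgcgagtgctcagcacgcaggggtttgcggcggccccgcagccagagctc
The Fgfr4 window held 2 matches (CATTTG and CAGTTG), the Spry1 window 2 (CAGTTG and CACATG) and the Fgfr3 window 1 (CAGCTG, which is also a CANNTG), while the window of another Fgfr3 start, chr5:33722056-33722355, held 0. Of the remaining members with a window, Fgfr2 had 3 matches, Spry2 and Dusp6 1 each, and the 2 starts of Etv5 2 and 0. Such matches are common: 72.3% of 32851 promoter windows of this length held at least 1 CANNTG, 39.6% held 2 or more, and 16.3% held CAGCTG. The matches describe letters and are not evidence of binding. Fgfr1 and Etv4 had no window in the table.

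The libraries held 15.6 to 36.3 M estimated reads (median 22.1 M). Levels are given as CPM, TMM-scaled counts relative to library size, which compare libraries. Where different genes are compared, the length-corrected TPM that the authors deposited are used, summed over each gene's transcripts. A gene was called where the Benjamini-Hochberg adjusted p of edgeR's quasi-likelihood test over all 17325 genes was below 0.05 and the change at least 2-fold. Groups of 3 libraries often do not overlap. Between the arms this held for 37.9% to 48.8% of all genes tested on a given day. Over the comparisons of 2 groups it ran from 15.2% (sorted against bulk myoblasts) to 57.6% (day 10 with F/R/C against MEFs). A lack of overlap is thus only a description. The labels do not say whether replicates were separate cultures or animals, so p-values measure only the spread between these samples, which may be technical. The mean of the 5 days takes libraries of different days as independent. Yet same-numbered libraries could rank alike over days: for Fgfr1, replicate 2 was lowest and replicate 3 highest on 5 of 5 days in both arms. Standard errors and p-values of that mean may thus be too small. The labelled cell types were checked against marker lists: MEFs held 9088.8 to 10382.0 TPM of 12 fibroblast markers and 85.0 to 217 TPM of 12 differentiation markers, and MyoD alone on day 10 held 13880.0 to 41296.0 TPM of the latter. Fibroblast markers were still at 3649.4 to 9530.7 TPM in that group. The 3 bulk iMPC libraries were among the 4 deepest, and sorted libraries were quantified with another effective-length setting than unsorted ones, so these features and the groups cannot be told apart.

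**Figure D1:**
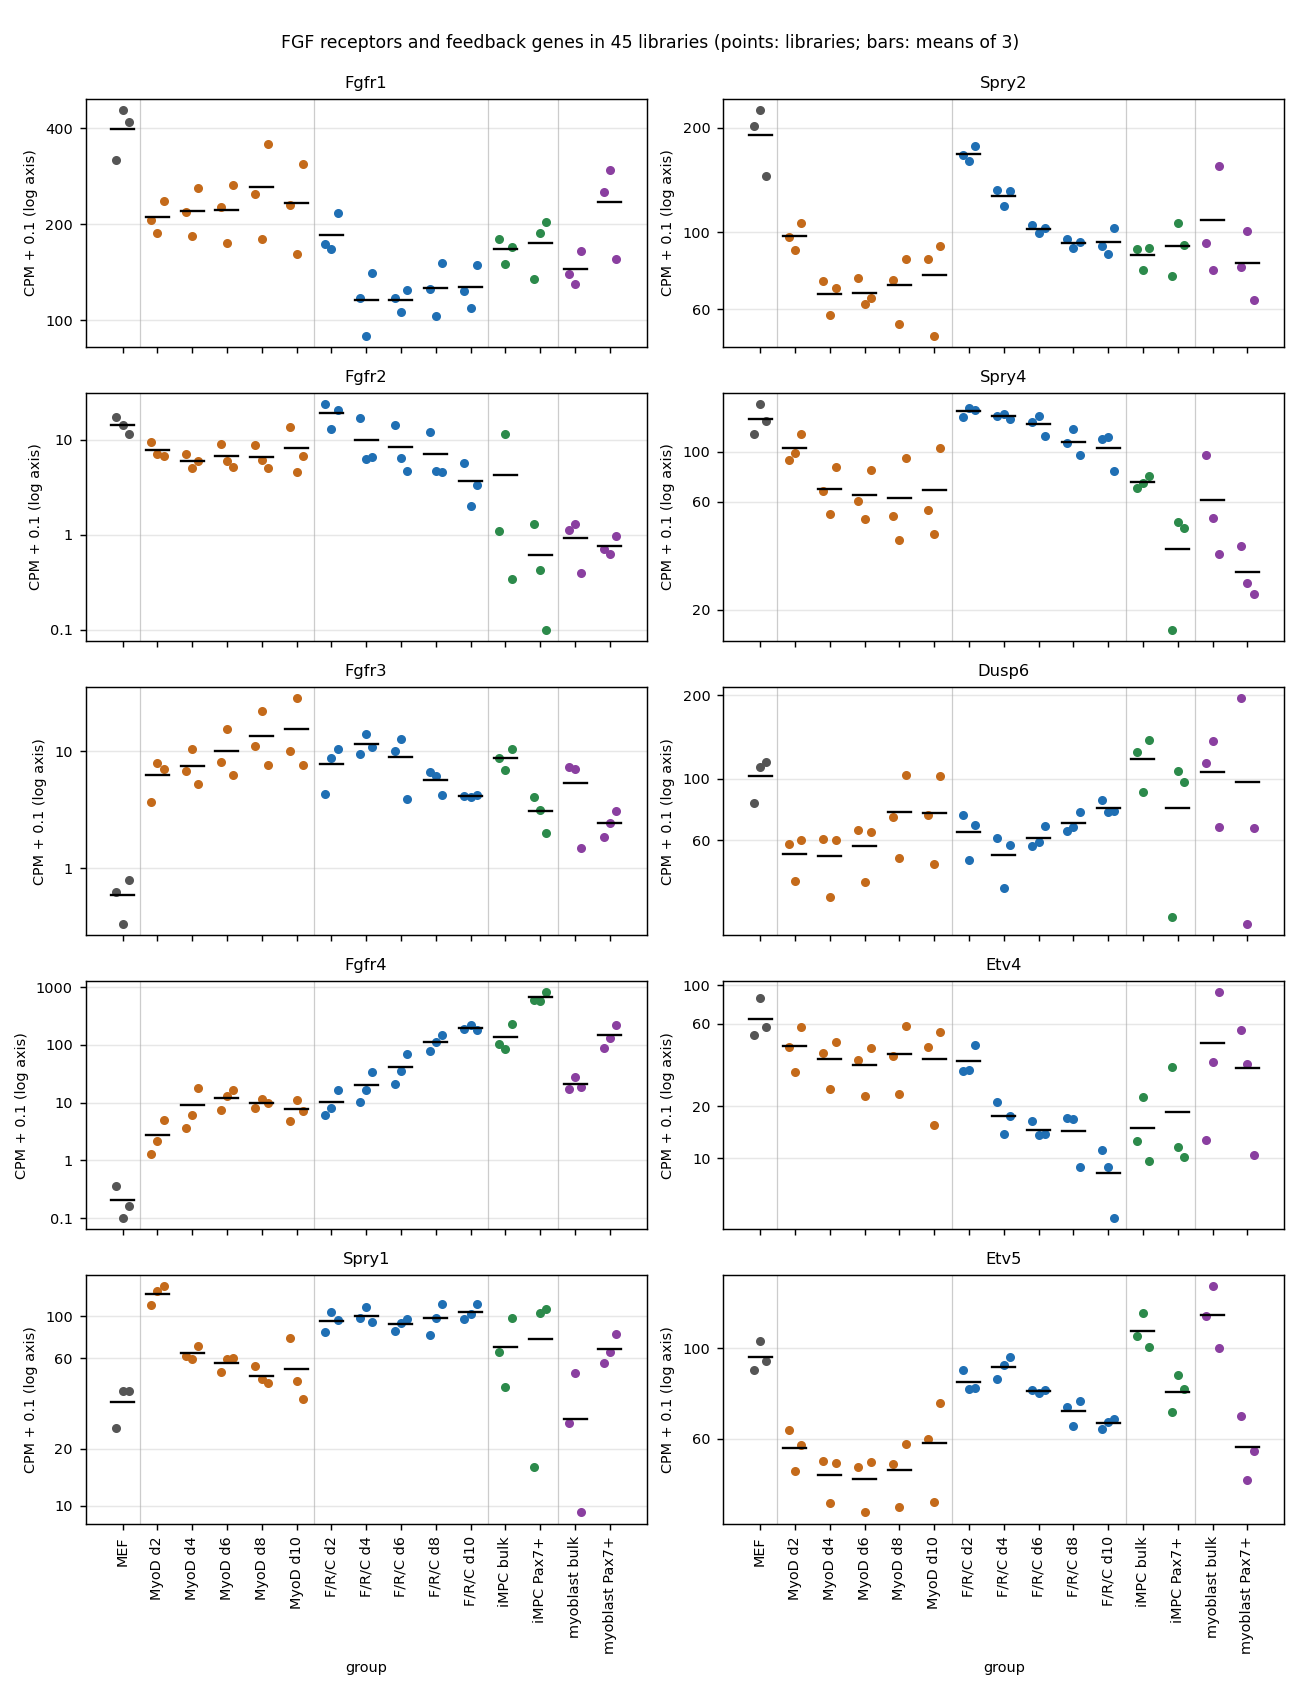
Each panel plots 1 gene over the 15 groups (x axis); the y axis is CPM plus 0.1 on a log scale, points are libraries and bars are means of 3. Fgfr4 climbs from near 0 in MEFs to 577 to 815 CPM in Pax7-positive iMPCs, while Fgfr1 is highest in MEFs (317 to 457 CPM).

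Fgfr4, a receptor typical of myogenic cells, was the member that moved most. It rose with MyoD and rose further with F/R/C. In MEFs it was close to absent, with 6, 0 and 1 reads in the 3 libraries, a mean of 0.109 CPM. After 2 days of MyoD alone the libraries held 1.17, 2.06 and 4.81 CPM, and with F/R/C 5.90, 7.92 and 16.8 CPM. All 6 treated libraries lay above all MEF libraries, and the arms did not overlap. Set against the 7 pooled MEF reads, the mean of MyoD alone was 23.0 times higher (95% exact Poisson interval of the MEF reads, 11.2 to 57.2). With F/R/C it was 87.6 times higher (42.5 to 218). These intervals cover counting error in MEFs only, and 6 of the 7 reads were in replicate 1, so the size of the fold is uncertain. Both differences were called by edgeR's quasi-likelihood test (adjusted p = 2.9e-04 with MyoD alone and 9.4e-07 with F/R/C) and in all alternatives run. The fitted log2 change of 4.48 with MyoD alone moved to 6.36 without MEF replicate 1, to 3.87 without MEF replicate 2 and to 3.72 without MyoD alone replicate 3. That of 6.40 with F/R/C moved to 8.30 without MEF replicate 1 and to 5.80 without MEF replicate 2. In bulk libraries, more cells that express a gene and more of its RNA per cell cannot be told apart.

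After day 2 Fgfr4 stayed low with MyoD alone, at 8.98 ± 7.46 CPM (SD, n = 3) on day 4, 12.0 ± 4.50 on day 6, 9.71 ± 1.73 on day 8 and 7.68 ± 3.31 on day 10. Under F/R/C it climbed through 20.0 ± 12.4, 41.8 ± 24.5 and 113 ± 35.9 to 196 ± 20.0 CPM. On day 10 the F/R/C libraries held 189, 218 and 180 CPM against 4.63, 11.2 and 7.21 CPM, so every F/R/C library was more than 10 times above every library of MyoD alone. The difference on that day was 25.5-fold, or 4.67 on the log2 scale (SE 0.62, adjusted p = 1.6e-06, edgeR's quasi-likelihood test). It was 1.91 (SE 0.59, adjusted p = 0.037) on day 2, 1.79 (SE 0.55, adjusted p = 0.016) on day 6 and 3.54 (SE 0.59, adjusted p = 4.7e-05) on day 8, and 2.62 (SE 0.26, adjusted p = 2.7e-10) averaged over the 5 days. On day 4 the arms overlapped and the difference of 1.16 (SE 0.55, adjusted p = 0.13) was not called. The overlap came from replicate 3 of MyoD alone at 17.5 CPM, and without it day 4 was called (2.12, adjusted p = 0.015). With the replicate number as a block it was called too (1.22, adjusted p = 0.017).

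Within the F/R/C arm Fgfr4 rose by 4.26 log2 units from day 2 to day 10 (SE 0.61, adjusted p = 1.7e-05, edgeR's quasi-likelihood test). With MyoD alone the same step was 1.50 (SE 0.58, adjusted p = 0.094), and it was called with the replicate block (1.65, adjusted p = 0.007) and by DESeq2 (1.53, adjusted p = 0.048). The difference between these steps, 2.76 (SE 0.80, adjusted p = 0.03), was called. That call was lost in 6 of the fits that left out 1 library: MyoD alone day 2 replicate 3 (2.12, adjusted p = 0.14), F/R/C day 2 replicate 1 or 2 (0.085 and 0.055), MyoD alone day 10 replicate 1 or 3 (0.066 and 0.055) and F/R/C day 10 replicate 2 (0.07). The day 2 call was lost without replicate 1 or 2 of MyoD alone or replicate 3 of F/R/C (adjusted p = 0.17, 0.15 and 0.27) and when only these groups were fitted (0.054). That of day 6 was lost without replicate 1 of MyoD alone or replicate 3 of F/R/C (adjusted p = 0.073 and 0.12). The calls of day 8, of day 10 and of the mean held under all alternatives run.

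Other features moved with the F/R/C arm on day 10, where 9.91% of all genes tested were called higher and 13.4% lower. Of 12 proliferation markers 8 were called higher and 0 lower (summed level 390 to 903 TPM against 42.4 to 364 TPM), and of 10 progenitor markers 4 higher and 2 lower (877 to 1003.6 against 556 to 786 TPM). Of 12 fibroblast markers 1 was higher and 3 lower (666 to 2689.7 against 3649.4 to 9530.7 TPM), and 0 of 12 differentiation markers were called (16810.8 to 28565.4 against 13880.0 to 41296.0 TPM). Markers of endothelial, leukocyte and epithelial cells were low in both arms on day 10. Endothelial ones summed to 1.40 to 2.09 TPM with F/R/C and 4.25 to 9.18 TPM with MyoD alone (0 higher and 2 lower of 5 tested, Cldn5 without a read in the latter). Leukocyte ones summed to 7.44 to 9.44 and 5.59 to 8.86 TPM (0 and 2 of 3, Adgre1 without a read in either arm). Epithelial ones summed to 5.72 to 12.6 and 3.03 to 10.2 TPM (2 and 0 of 3, Krt14 without a read in either arm). The epithelial sum was 25.6 to 59.2 TPM in MEFs. It was higher with F/R/C on day 2 (14.3 to 39.4 against 4.16 to 8.24 TPM) and day 4 (11.0 to 29.6 against 5.02 to 7.50 TPM), and the arms overlapped from day 6 on. From a Schwann and neural crest list, Ngfr, a neurotrophin receptor, was at 5.75 to 8.90 TPM with F/R/C and 0.320 to 1.80 TPM with MyoD alone on day 10 (2.93, SE 0.88, adjusted p = 0.0081, edgeR's quasi-likelihood test). On day 8 it was at 4.30 to 5.45 against 0.723 to 2.71 TPM, not called (1.36, adjusted p = 0.21). Earlier it went the other way, at -0.84, -2.04 and -1.35 on days 2, 4 and 6 (adjusted p = 0.69, 0.09 and 0.23). On day 4 it was at 0.25 to 0.891 against 1.58 to 2.82 TPM. Its mean of the 5 days was 0.01 (adjusted p = 0.99). S100b, a glial calcium-binding protein, was not called on day 10 (-0.65, SE 1.16, adjusted p = 0.68). Sox10, the factor that defines these cells, was at 0.0297 to 0.0953 TPM with F/R/C and had no read with MyoD alone on day 10. The part of these features in the differences between the arms was not tested.

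**Figure D2:**
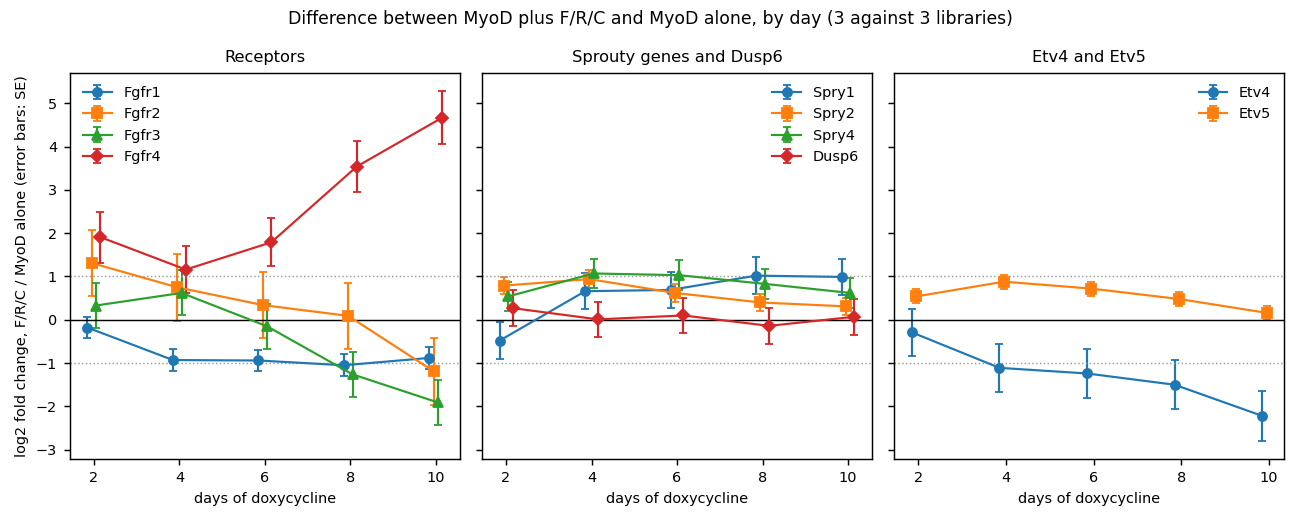
The y axis is the log2 fold change of MyoD plus F/R/C over MyoD alone, the x axis days of doxycycline; error bars are standard errors and dotted lines mark 2-fold. The Fgfr4 difference reaches 4.67 on day 10, Etv4 lies below -1 from day 4 on, and Dusp6 stays between -0.14 and 0.27.

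Fgfr1, the main receptor of fibroblasts, moved the other way. Its libraries held 317, 457 and 419 CPM in MEFs. On day 10 they held 230, 161 and 310 CPM with MyoD alone, and the F/R/C libraries 123, 109 and 149 CPM. None of these 3 groups overlapped. Against MEFs it fell by 1.65 on the log2 scale with F/R/C by day 10 (SE 0.25, adjusted p = 2.2e-06, edgeR's quasi-likelihood test), and it was already lower on day 2 (-1.10, SE 0.25, adjusted p = 8.0e-04), at -0.98 without MEF replicate 2. With MyoD alone the difference to MEFs was -0.92 on day 2 (adjusted p = 0.0038) and -0.77 on day 10 (adjusted p = 0.017), both under 2-fold. Leaving out 1 library (MEF replicate 1 or MyoD alone replicate 3 on day 2, MyoD alone replicate 3 on day 10) took these to between -1.03 and -1.08.

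Between the arms Fgfr1 overlapped on day 2 (-0.18, adjusted p = 0.72, edgeR's quasi-likelihood test) and did not overlap on days 4, 6, 8 and 10. The differences there were -0.93, -0.94, -1.05 and -0.88 (SE 0.25, adjusted p from 0.0016 to 0.0057), and the mean of the 5 days was -0.80 (SE 0.11, adjusted p = 1.9e-07). Day 8 alone reached 2-fold. It was -0.99 with RLE factors, without the filter and by DESeq2, -0.76 without MyoD alone replicate 3 and -0.86 without F/R/C replicate 2. Day 4 was called without MyoD alone replicate 2 or F/R/C replicate 3 (-1.03 and -1.08) and day 6 without MyoD alone replicate 2 (-1.05). Fgfr1 was thus lower by a little under or over 2-fold on these 4 days.

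Fgfr3, a receptor better known from cartilage and here hardly read in MEFs (12, 5 and 11 reads, 0.486 ± 0.235 CPM), rose within 2 days. Day 2 of MyoD alone held 3.55, 7.86 and 6.97 CPM and day 2 with F/R/C 4.20, 8.63 and 10.3 CPM, all above MEFs. The log2 fold changes were 3.67 (SE 0.62, adjusted p = 2.4e-05, edgeR's quasi-likelihood test) and 4.00 (SE 0.62, adjusted p = 8.3e-06). The arms then went apart in the direction opposite to Fgfr4. MyoD alone held 10.0, 28.3 and 7.56 CPM on day 10 and F/R/C 4.05, 3.99 and 4.13 CPM, without overlap. F/R/C was lower by 1.91 log2 units (SE 0.53, adjusted p = 0.0048), a call lost without replicate 2 of MyoD alone, the library at 28.3 CPM (-1.01, adjusted p = 0.14). That library also had the highest differentiation marker sum of its group, 41296.0 TPM against 20156.0 and 13880.0 TPM, and the part of this was not tested. Day 8 was at -1.26 (SE 0.52, adjusted p = 0.061) and was called without MyoD alone replicate 3 (-1.55, adjusted p = 0.039). The day 10 difference minus that of day 2 was -2.24 (SE 0.74, adjusted p = 0.053), called by DESeq2 (-2.18, adjusted p = 0.029).

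Fgfr2, a receptor best known from epithelia, was low throughout and fell late with F/R/C. MEFs held 17.2, 14.2 and 11.3 CPM, day 2 with F/R/C 23.5, 12.7 and 20.3 CPM and day 10 5.53, 1.90 and 3.21 CPM, the last below both others. The log2 fold change of day 10 was -2.40 against day 2 (SE 0.80, adjusted p = 0.024, edgeR's quasi-likelihood test) and -2.00 against MEFs (SE 0.79, adjusted p = 0.033). The former was lost without day 2 replicate 1 or day 10 replicate 2 or 3 (adjusted p 0.088 to 0.13). The latter was lost without MEF replicate 1 or 2 or day 10 replicate 2 or 3 (0.07 to 0.15) and without the filter (0.059). In the 4 progenitor and myoblast groups 10 of 12 libraries held 0.242 to 1.21 CPM. The other 2 were replicate 2 of bulk iMPCs at 11.3 CPM and replicate 3 of Pax7-positive iMPCs with 0 reads, which allows up to 0.169 CPM (3 reads). With F/R/C, replicate 1 had both the highest Fgfr2 and the highest epithelial marker sum on 5 of 5 days. With MyoD alone it had the highest Fgfr2 on 5 days but the highest epithelial sum on 1. Bulk iMPC replicate 2 had the highest epithelial sum of its group (5.08 against 1.38 and 2.38 TPM). The part of epithelial RNA in the Fgfr2 values was not tested.

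The receptor make-up, compared by TPM, changed accordingly. Fgfr1 supplied 96.1% ± 0.966 (SD, n = 3) of the summed TPM of the 4 receptors in MEFs, 87.3% ± 6.71 after 10 days of MyoD alone and 40.4% ± 8.21 after 10 days that included F/R/C. Fgfr4 supplied 0.0403% ± 0.0594, 3.36% ± 2.15 and 57.0% ± 8.31 in the same groups. With F/R/C its share went through 3.96% on day 2, 11.5% on day 4, 21.4% on day 6 and 44.2% on day 8. It was 74.7% ± 3.45 in Pax7-positive and 37.9% ± 11.7 in bulk iMPCs, against 34.0% ± 15.9 in Pax7-positive and 11.4% ± 3.56 in bulk myoblasts. The summed receptor level was 297 ± 31.7 TPM in MEFs, 166 ± 43.3 on day 10 of MyoD alone, 221 ± 6.33 with F/R/C and 342 ± 48.5 in Pax7-positive iMPCs. The mean with F/R/C thus lay between those of MyoD alone and MEFs. With protein-coding transcripts only, the Fgfr4 share was 62.7% on day 10 with F/R/C and 80.4% in Pax7-positive iMPCs. In bulk iMPCs it was 48.1% ± 13.9 beside 46.8% ± 12.7 for Fgfr1, while Fgfr1 led there over all transcripts (56.7% ± 10.1). In myoblasts it was 44.9% ± 18.5 in Pax7-positive and 15.1% ± 7.73 in bulk cells. By TPM of all transcripts, Fgfr4 was the most abundant of the 10 genes on day 10 with F/R/C and in Pax7-positive iMPCs (126 and 256 TPM). It was the least abundant in MEFs (0.108 TPM), where Fgfr1 (285 TPM) and Spry2 (167 TPM) led.

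**Figure D3:**
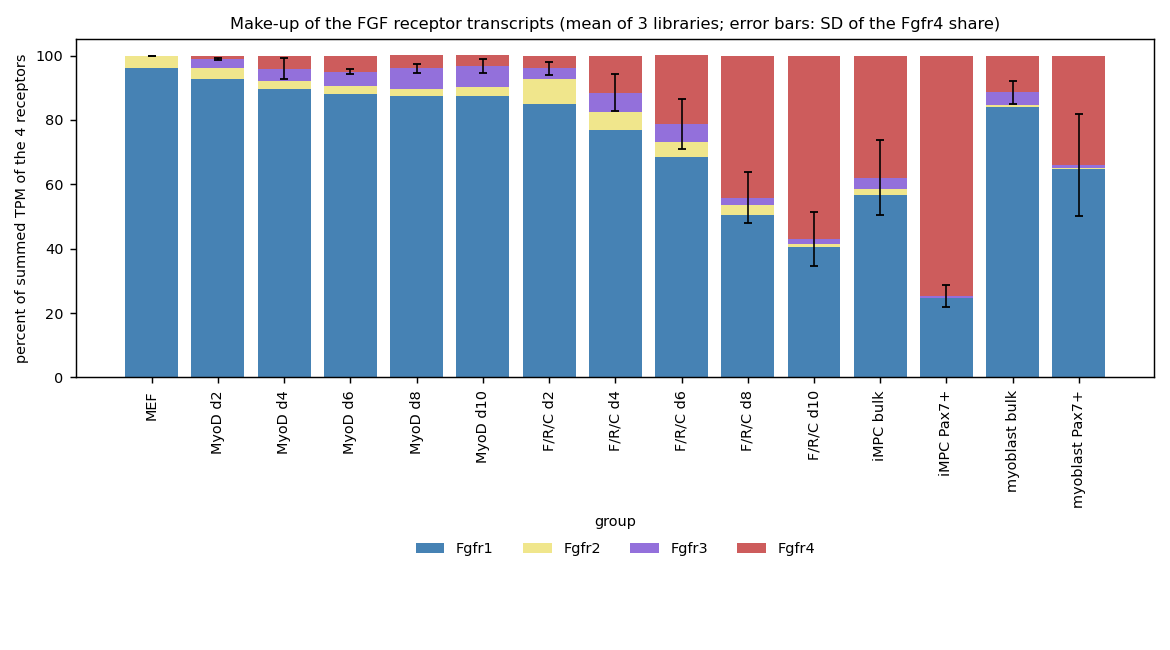
Stacked bars give the mean percent of the summed TPM of the 4 receptors (y axis) in each of the 15 groups (x axis), and error bars the SD of the Fgfr4 share over 3 libraries. The Fgfr4 part widens with F/R/C from 3.96% on day 2 to 57.0% on day 10 and is widest in Pax7-positive iMPCs (74.7%).

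The Sprouty genes encode inhibitors that act between the receptor and the ERK cascade. Spry1 rose early with MyoD. MEFs held 25.7, 40.2 and 40.4 CPM, day 2 of MyoD alone 115, 136 and 144 CPM and day 2 with F/R/C 82.3, 106 and 95.2 CPM. All treated libraries were above all MEF libraries, by 1.90 on the log2 scale alone (SE 0.44, adjusted p = 9.7e-04, edgeR's quasi-likelihood test) and by 1.42 with F/R/C (SE 0.43, adjusted p = 0.011; 0.059 without MEF replicate 1). The level then fell with MyoD alone, to 76.9, 45.3 and 36.6 CPM on day 10 (-1.32 against day 2, SE 0.43, adjusted p = 0.043). This call was lost without the filter (0.06), without any 1 of the day 2 libraries or without day 10 replicate 2 or 3 (0.06 to 0.17). With F/R/C it was 97.1, 103 and 117 CPM on day 10, 0.16 from day 2 (SE 0.42, adjusted p = 0.81) and 1.58 above MEFs (SE 0.43, adjusted p = 0.0027).

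The arms did not overlap for Spry1 on any of the 5 days, and the order turned. On a given day 37.9% to 48.8% of all genes tested did not overlap either. F/R/C was at -0.48 relative to MyoD alone on day 2 and at 0.66, 0.69, 1.02 and 0.99 on days 4, 6, 8 and 10 (SE 0.42 to 0.43, adjusted p = 0.55, 0.27, 0.23, 0.063 and 0.059, edgeR's quasi-likelihood test). No day was called, and the mean of 0.58 (SE 0.19, adjusted p = 0.0087) was under 2-fold. Days 8 and 10 sat at the threshold: DESeq2 called both (1.08, adjusted p = 0.036, and 1.06, adjusted p = 0.034), as did the fit of only these groups (1.07, adjusted p = 0.0074, and 1.06, adjusted p = 0.034). RLE factors called day 10 (1.06, adjusted p = 0.047), and so did the fit without MyoD alone replicate 1 (1.49, adjusted p = 0.018). The turn from day 2 to day 10 was 1.47 (SE 0.60, adjusted p = 0.11).

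Spry2 fell in both arms. MEFs held 202, 225 and 145 CPM, day 2 of MyoD alone 96.8, 89.1 and 106 CPM and day 2 with F/R/C 167, 160 and 177 CPM, so the arm with F/R/C still overlapped MEFs on day 2. By day 10 it was lower than in MEFs by 1.34 on the log2 scale with MyoD alone (SE 0.21, adjusted p = 6.9e-06, edgeR's quasi-likelihood test) and by 1.03 with F/R/C (SE 0.21, adjusted p = 9.9e-05). The latter value sits at the 2-fold limit and was between -0.79 and -0.98 in 8 of 12 alternatives, 4 of them fits without MEF replicate 1 or 2 or day 10 replicate 2 or 3. The alternative that only dropped the fold limit could not lose the call. Day 2 of MyoD alone was just under the limit (-0.97, SE 0.21, adjusted p = 4.1e-04). It reached the limit with RLE factors and DESeq2 and without MEF replicate 3 or MyoD alone replicate 1 or 3 (-1.01 to -1.17).

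Between the arms all Spry2 libraries with F/R/C lay above all of MyoD alone on days 2 to 8, and the arms overlapped on day 10. The differences were 0.79, 0.94, 0.62, 0.40 and 0.31 on days 2 to 10 (SE 0.20 to 0.21, adjusted p = 0.013, 0.0011, 0.024, 0.13 and 0.23, edgeR's quasi-likelihood test). The mean was 0.61 (SE 0.09, adjusted p = 8.0e-07), a small difference whose error takes libraries of different days as independent. Day 4 was called without MyoD alone replicate 1 or F/R/C replicate 2 (1.04 and 1.01).

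Spry4 was the Sprouty gene called between the arms. On day 4 MyoD alone held 67.0, 52.8 and 85.1 CPM and F/R/C 144, 147 and 139 CPM. On day 6 the values were 60.1, 50.2 and 82.8 against 135, 143 and 117 CPM. The arms did not overlap on either day, with differences of 1.07 (SE 0.34, adjusted p = 0.02, edgeR's quasi-likelihood test) and 1.03 (SE 0.34, adjusted p = 0.023). Both calls were lost without replicate 1 or 2 of MyoD alone or replicate 2 of F/R/C (adjusted p 0.056 to 0.11). On days 2, 8 and 10 the difference was 0.54, 0.83 and 0.62 (adjusted p = 0.36, 0.056 and 0.14), and the mean of the 5 days was 0.82 (SE 0.15, adjusted p = 2.0e-05). Replicate 3 of MyoD alone stood at 93.5 CPM on day 8 and 104 CPM on day 10, where the other 2 libraries held at most 54.8 CPM. Without it Spry4 was called on those days (1.25, adjusted p = 0.013, and 1.21, adjusted p = 0.011). Day 8 was also called without F/R/C replicate 3 (1.02, adjusted p = 0.044). Against MEFs (120, 162 and 136 CPM), Spry4 fell by 1.05 by day 10 of MyoD alone (SE 0.34, adjusted p = 0.019), a call lost without MEF replicate 2 or day 10 replicate 1 or 2 (0.07 to 0.14) and with only these groups fitted (0.079).

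Dusp6, the cytosolic ERK phosphatase, was called in none of the 19 comparisons with all libraries. Day 10 held 74.1, 49.2 and 102 CPM with MyoD alone and 83.5, 75.9 and 76.7 CPM with F/R/C, and the arms overlapped on all 5 days. The mean difference was 0.06 log2 units (SE 0.18, adjusted p = 0.80, edgeR's quasi-likelihood test), and single days ran from -0.14 to 0.27 (SE 0.41). MEFs held 81.5, 110 and 115 CPM, and day 2 of MyoD alone lay below at 58.1, 42.6 and 60.1 CPM without overlap (-0.93, SE 0.41, adjusted p = 0.077).

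The Ets factors Etv4 and Etv5 are close relatives, and they went apart with F/R/C. Etv4 held 51.3, 84.1 and 57.1 CPM in MEFs. By day 10 it was at 43.8, 15.4 and 53.5 CPM under MyoD alone and at 11.0, 8.86 and 4.41 CPM under F/R/C. The F/R/C libraries lay below all libraries of MyoD alone on days 4 to 10. The difference was -0.29 on day 2, -1.11 on day 4 and -1.24 on day 6 (adjusted p = 0.82, 0.15 and 0.096, edgeR's quasi-likelihood test), not called. It was called on day 8 (-1.50, SE 0.56, adjusted p = 0.038), on day 10 (-2.22, SE 0.58, adjusted p = 0.0027) and in the mean (-1.27, SE 0.25, adjusted p = 5.1e-05). Within the F/R/C arm Etv4 fell by 2.17 from day 2 to day 10 (SE 0.58, adjusted p = 0.0057; 0.055 without day 10 replicate 3). It fell by 2.99 against MEFs (SE 0.59, adjusted p = 9.1e-05).

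The Etv4 calls on day 10 and of the mean held under all alternatives run. That of day 8 was lost without the filter (adjusted p = 0.072, edgeR's quasi-likelihood test) and without MyoD alone replicate 1 or 3 or any 1 of the F/R/C libraries (0.057 to 0.19). The fit of only these groups called day 4 (-1.08, adjusted p = 0.02) and day 6 (-1.18, adjusted p = 0.012). On day 10 of MyoD alone the library with the lowest Etv4, replicate 2, also had the lowest fibroblast marker sum, 3649.4 TPM against 9530.7 and 8431.7 TPM. The part of fibroblast RNA in the Etv4 values was not tested.

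Etv5 was higher with F/R/C in the first days. Day 4 held 52.7, 41.5 and 52.1 CPM with MyoD alone and 83.9, 90.7 and 95.1 CPM with F/R/C, without overlap, a difference of 0.88 (SE 0.16, adjusted p = 1.6e-04, edgeR's quasi-likelihood test). It was 0.54, 0.72, 0.48 and 0.16 on days 2, 6, 8 and 10 (SE 0.16, adjusted p = 0.032, 0.0013, 0.02 and 0.44). The mean was 0.56 (SE 0.07, adjusted p = 5.6e-08), and all of these were under 2-fold. Against MEFs (88.5, 104 and 92.9 CPM), Etv5 was at -0.74 on day 2 of MyoD alone (SE 0.16, adjusted p = 5.2e-04). Day 2 with F/R/C overlapped MEFs (-0.21, SE 0.16, adjusted p = 0.34).

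The ratio of Etv5 to Etv4 TPM brings both together. Its group means were 0.557 in MEFs and 0.476 to 0.647 over the 5 days of MyoD alone. With F/R/C they were 0.873 on day 2, 1.95, 2.00 and 2.11 on days 4, 6 and 8 and 3.62 on day 10 (libraries from 2.14 to 5.54). From day 4 on, the lowest F/R/C library (1.37) lay above the highest library of MyoD alone (0.973). Bulk iMPCs stood at 3.18 (2.09 to 4.02) and Pax7-positive iMPCs at 2.21 (0.752 to 3.17). Bulk and Pax7-positive myoblasts spread widely, at 1.62 (0.339 to 3.11) and 0.904 (0.392 to 1.82). These ratios use all transcripts. With protein-coding transcripts only, mean Etv5 and Etv4 TPM were 42.4 and 43.1 in MEFs. They were 24.9 and 24.4 on day 10 of MyoD alone and 20.7 and 12.7 in Pax7-positive myoblasts. With F/R/C they were 34.2 and 23.4 on day 2 and 27.6 and 5.72 on day 10. The place of a group relative to 1 thus depends on the transcripts counted. No test of the ratio was run.

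**Figure D4:**
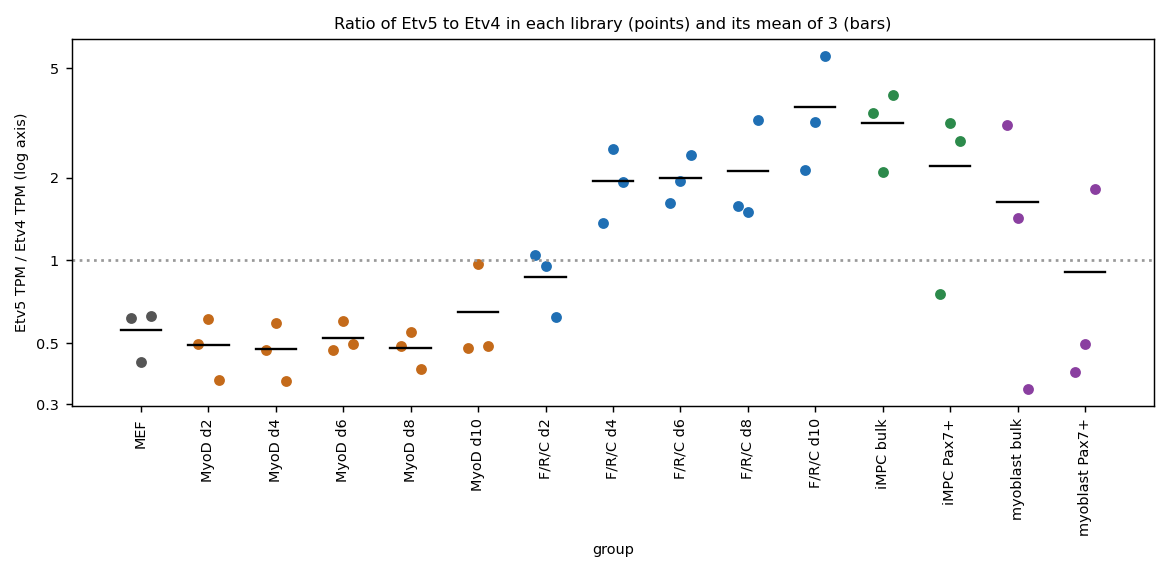
The y axis is the ratio of Etv5 to Etv4 TPM on a log scale, the x axis the 15 groups; points are libraries and bars means of 3. With TPM of all transcripts, all libraries of MEFs and of MyoD alone lie below 1. All F/R/C libraries from day 4 on lie above 1 (lowest 1.37). With protein-coding transcripts only, mean Etv5 and Etv4 TPM were 42.4 and 43.1 in MEFs.

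Counted over the 10 genes, F/R/C against MyoD alone called 1 higher and 0 lower on day 2 (Fgfr4), where 2.13% of all genes tested were called higher and 2.8% lower. On day 4 it called 1 and 0 (Spry4), beside 6.58% and 6.66% of all genes. On day 6 it called 2 and 0 (Fgfr4 and Spry4), beside 8.23% and 7.14%. On day 8 it called 1 and 2 (Fgfr4, with Fgfr1 and Etv4 lower), beside 9.2% and 9.46%, and on day 10 1 and 2 (Fgfr4, with Fgfr3 and Etv4 lower), beside 9.91% and 13.4%. The mean of the 5 days called 1 and 1 (Fgfr4 and Etv4), beside 11.6% and 10.5%, and the change of the difference from day 2 to day 10 called 1 and 0 (Fgfr4), beside 2.24% and 3.77%. With 10 genes these shares lie close to the background, so the single genes and not their number carry the comparison of the arms.

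Against MEFs, MyoD alone called 3 higher and 0 lower on day 2 (Fgfr3, Fgfr4 and Spry1; 10.1% of all genes were lower) and 2 and 2 on day 10 (Fgfr3 and Fgfr4, with Spry2 and Spry4 lower), the latter beside 14.3% and 4.64% of all genes. Under F/R/C the counts were 3 and 1 on day 2 (Fgfr3, Fgfr4 and Spry1, with Fgfr1 lower; 8.93% of all genes were lower). They were 3 and 4 on day 10 (Fgfr3, Fgfr4 and Spry1, with Fgfr1, Fgfr2, Spry2 and Etv4 lower), beside 19% and 15.8% of all genes. From day 2 to day 10, MyoD alone called 0 and 1 (Spry1), beside 4.5% and 1.76%, and F/R/C 1 and 2 (Fgfr4, with Fgfr2 and Etv4 lower), beside 9.85% and 6.18%.

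In the established progenitors Fgfr4 stayed high. Bulk iMPCs held 103, 85.4 and 231 CPM and overlapped day 10 with F/R/C. Between these groups 0 of the 10 genes were called higher and 0 lower (3.33% and 6.24% of all genes) by edgeR's quasi-likelihood test and 0 by DESeq2, and 2 had an unadjusted p under 0.05. These were Etv5 (0.75, SE 0.16, adjusted p = 0.0012), under 2-fold, and Fgfr3 (1.08, SE 0.52, adjusted p = 0.14). Without bulk iMPC replicate 2, Fgfr2 was called lower (-2.57, adjusted p = 0.024) where it was 0.23 with all libraries, and the fit of only these groups called Fgfr3 (1.02, adjusted p = 0.04).

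Pax7-positive iMPCs held 607, 577 and 815 CPM of Fgfr4, above every other library of the series. They were higher than bulk iMPCs by 2.25 on the log2 scale (SE 0.55, adjusted p = 0.0012, edgeR's quasi-likelihood test). They were higher than Pax7-positive myoblasts, at 87.7, 130 and 221 CPM, by 2.19 (SE 0.55, adjusted p = 0.0015). Bulk myoblasts held 17.2, 27.6 and 18.7 CPM and lay below bulk iMPCs (2.72, SE 0.56, adjusted p = 4.2e-04) and below Pax7-positive myoblasts (2.78, SE 0.57, adjusted p = 0.0017). The groups overlapped in none of these 4 comparisons. The size of the steps across sorting depended on the measure. Mean TPM was 256 in Pax7-positive and 77.3 in bulk iMPCs, and 56.2 in Pax7-positive and 13.9 in bulk myoblasts. Both steps were smaller by TPM than by CPM. The calls held under the alternatives run, except that of sorted against bulk myoblasts when only these 6 libraries were fitted (2.79, adjusted p = 0.39). The step from bulk to sorted cells in iMPCs minus that in myoblasts was -0.53 (SE 0.75, adjusted p = 0.63), which does not show that the steps were alike.

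Other markers moved with these comparisons. Of all genes tested, 9.88% were called higher and 20.5% lower in Pax7-positive against bulk iMPCs. The shares were 12.4% and 17.6% in Pax7-positive iMPCs against Pax7-positive myoblasts, 10.9% and 8.7% in bulk iMPCs against bulk myoblasts, and 2.2% and 4.03% in sorted against bulk myoblasts. In Pax7-positive against bulk iMPCs, 10 of 12 differentiation markers were called lower (2234.8 to 2620.8 against 28995.4 to 34740.9 TPM), 7 of 12 fibroblast markers lower (496 to 992 against 1484.9 to 2497.9 TPM) and 3 of 12 proliferation markers higher (1511.1 to 1832.9 against 472 to 1000.0 TPM). In Pax7-positive iMPCs against Pax7-positive myoblasts, 9 differentiation markers were lower (2234.8 to 2620.8 against 4535.5 to 17540.4 TPM), 6 proliferation markers higher (1511.1 to 1832.9 against 405 to 972 TPM) and 4 fibroblast markers higher (496 to 992 against 154 to 877 TPM). In bulk iMPCs against bulk myoblasts, 11 fibroblast markers were higher and 1 lower (1484.9 to 2497.9 against 503 to 2003.4 TPM, Lum without a read in the latter). Of the 10 progenitor markers, 4 were higher and 2 lower in Pax7-positive against bulk iMPCs, with a lower sum (644 to 749 against 884 to 1021.2 TPM). Against Pax7-positive myoblasts 3 were higher and 4 lower, again with a lower sum (1050.9 to 1427.9 TPM in the myoblasts). Epithelial markers were at 0.0232 to 0.254 TPM in Pax7-positive iMPCs, 1.38 to 5.08 TPM in bulk iMPCs and 1.34 to 10.2 TPM in Pax7-positive myoblasts, with 2 of 3 called lower in both comparisons. Ngfr was at 2.40 to 21.2 TPM in Pax7-positive iMPCs, 1.75 to 15.8 TPM in bulk iMPCs, 0.383 to 1.61 TPM in Pax7-positive and 0.155 to 2.13 TPM in bulk myoblasts. It was called higher in iMPCs, by 3.66 in the sorted cells (SE 0.89, adjusted p = 0.0011, edgeR's quasi-likelihood test) and by 2.72 in the bulk cells (SE 0.86, adjusted p = 0.015). Sox10 was at most 0.196 TPM in these 4 groups. Bulk myoblasts ran from 1489.7 to 41134.5 TPM of differentiation markers, and 0 of 12 were called between sorted and bulk myoblasts. The part of these features in the values of the 10 genes was not tested.

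**Figure D5:**
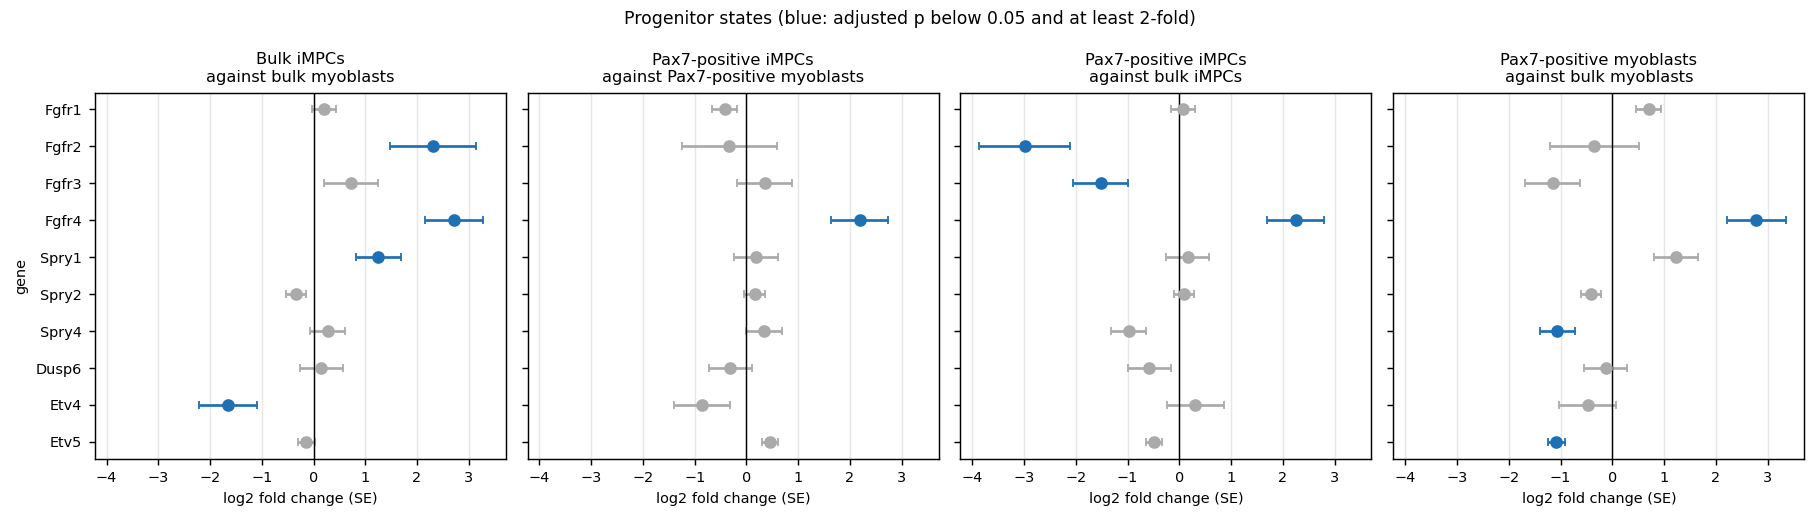
Each panel plots the log2 fold change with its standard error (x axis) of the 10 genes (y axis) in 1 comparison of progenitor groups, with called genes in a colour of their own. Fgfr4 is called higher in all 4 panels, from 2.19 to 2.78.

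Beside Fgfr4, bulk iMPCs against bulk myoblasts called Fgfr2 and Spry1 higher and Etv4 lower (3 higher and 1 lower in all, beside 10.9% and 8.7% of all genes). The groups overlapped for all 3, and each call was lost in some fit without 1 library. Fgfr2 held 0.985, 11.3 and 0.242 CPM in bulk iMPCs against 1.03, 1.18 and 0.291 CPM. Its log2 fold change of 2.31 (SE 0.83, adjusted p = 0.03, edgeR's quasi-likelihood test) turned to -0.44 (adjusted p = 0.70) without bulk iMPC replicate 2, and the call was lost without bulk myoblast replicate 1 or 3 (0.06 and 0.13). Spry1 held 65.1, 42.3 and 98.4 against 27.2, 50.0 and 9.14 CPM (1.25, SE 0.43, adjusted p = 0.023), lost without bulk myoblast replicate 1 or 3 or bulk iMPC replicate 3 (0.069 to 0.15). Etv4 held 12.5, 22.6 and 9.49 against 12.7, 36.1 and 91.0 CPM (-1.65, SE 0.56, adjusted p = 0.022), lost without bulk myoblast replicate 3 (-0.72, adjusted p = 0.37) or bulk iMPC replicate 1 or 3 (0.083 and 0.11). With only these groups fitted the 3 calls were lost (adjusted p 0.18 to 0.31). Bulk myoblast replicate 3, with the highest Etv4 and the lowest Spry1 of its group, was the library at 1489.7 TPM of differentiation markers.

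Pax7-positive against bulk iMPCs called Fgfr2 and Fgfr3 lower beside Fgfr4 higher (1 higher and 2 lower, beside 9.88% and 20.5% of all genes). Fgfr3 held 3.99, 3.03 and 1.91 against 8.60, 6.82 and 10.3 CPM, without overlap (-1.52, SE 0.53, adjusted p = 0.018, edgeR's quasi-likelihood test), and lost the call without sorted replicate 2 or 3 or bulk replicate 3 (0.052 to 0.097). The Fgfr2 call (-2.99, SE 0.88, adjusted p = 0.0055) again rested on bulk replicate 2 and was -0.17 (adjusted p = 0.88) without it. Spry4 held 16.2, 48.9 and 45.9 against 69.0, 72.7 and 78.0 CPM, just under 2-fold (-0.98, SE 0.34, adjusted p = 0.016). It was called without sorted replicate 2 or 3 or bulk replicate 1 (down to -1.18). By mean TPM, 10.2 against 24.2, the difference was over 2-fold. In the sorted iMPCs replicate 1 stood apart for several feedback genes. Its Spry1 was at 15.9 CPM against 104 and 109, its Dusp6 at 31.6 against 107 and 97.4, and its Etv4 at 33.4 against 11.6 and 10.1 CPM.

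Pax7-positive against bulk myoblasts called Spry4 and Etv5 lower beside Fgfr4 higher (1 higher and 2 lower, beside 2.2% and 4.03% of all genes). Etv5 held 68.2, 47.4 and 55.8 against 120, 142 and 100 CPM without overlap (-1.08, SE 0.16, adjusted p = 6.4e-05, edgeR's quasi-likelihood test). Without bulk or sorted replicate 2 it was -0.91 and -0.94, under 2-fold, and with only these groups fitted its adjusted p was 0.43. Spry4 held 38.2, 26.2 and 23.3 against 96.6, 50.8 and 35.2 CPM with overlap (-1.06, SE 0.34, adjusted p = 0.038). It lost the call without bulk replicate 1 (-0.54, adjusted p = 0.38), without sorted replicate 2 or 3 (0.16 and 0.15), without the filter (0.064) and with only these groups fitted (0.48). Spry1 was higher in all sorted libraries, at 56.8, 65.0 and 80.9 against 27.2, 50.0 and 9.14 CPM (1.23, SE 0.43, adjusted p = 0.056). It was called by DESeq2 (1.26, adjusted p = 0.028) and without bulk replicate 2 (1.94, adjusted p = 0.005). By TPM the Spry1 groups overlapped (36.3 to 43.9 against 7.68 to 41.3 TPM). Fgfr3 (-1.15, adjusted p = 0.16) was called without bulk replicate 3 (-1.61, adjusted p = 0.044). Dusp6 held 195, 29.9 and 66.5 CPM in sorted myoblasts. It was at -0.13 (adjusted p = 0.88) with all libraries and called lower without sorted replicate 1 (-1.14, adjusted p = 0.048).

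Pax7-positive iMPCs against Pax7-positive myoblasts called Fgfr4 alone (1 higher and 0 lower, beside 12.4% and 17.6% of all genes). Etv5 was at 0.45 (SE 0.16, adjusted p = 0.02, edgeR's quasi-likelihood test), under 2-fold and without overlap (69.5, 85.7 and 79.4 against 68.2, 47.4 and 55.8 CPM). Without sorted iMPC replicate 1, Etv4 was called too (-1.61, adjusted p = 0.035; -0.86, adjusted p = 0.21, with all libraries). In the sorting step of iMPCs minus that of myoblasts 0 were called higher and 0 lower (9.87% and 14.2% of all genes), with 2 at an unadjusted p under 0.05, Etv5 (0.59, adjusted p = 0.041) and Fgfr2 (-2.64, adjusted p = 0.095). DESeq2 called Fgfr2 (-2.70, adjusted p = 0.047), as did the fits without sorted iMPC replicate 1 (-4.19, adjusted p = 0.02) or bulk iMPC replicate 3 (-3.19, adjusted p = 0.027). Spry1 was called without bulk myoblast replicate 2 (-1.72, adjusted p = 0.023).

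Around the members, 14 of 22 FGF ligand genes were tested, and on day 10 of F/R/C against MyoD alone 3 were called higher and 2 lower, beside 9.91% and 13.4% of all genes (median log2 fold change 0.89, against -0.07 over all genes). Fgf2, a classical mitogen of myoblasts and fibroblasts, held 84.6 ± 36.5 CPM with MyoD alone and 4.03 ± 1.54 CPM with F/R/C (SD, n = 3; -4.39, SE 0.72, adjusted p = 2.2e-05, edgeR's quasi-likelihood test). It overlaps Nudt6 on the other strand, and whether the quantification used strand is not given in the sources used here. Fgf7, which signals to Fgfr2 of epithelia, was lower by 2.16 (64.2 ± 26.8 against 14.3 ± 6.70 CPM, adjusted p = 0.016). Fgf5 was higher by 4.09 (0.408 ± 0.106 against 7.04 ± 1.59 CPM, adjusted p = 1.2e-05). Fgf21, a hormone-like FGF, was higher by 4.80 (0.0706 ± 0.0215 against 2.12 ± 0.862 CPM, adjusted p = 0.0019). Both start from very low levels, which makes the size of these changes uncertain. Fgf13, which stays inside the cell, had the highest mean level of the list (47.6 TPM) and was not called (-0.82, SE 0.54, adjusted p = 0.23). Fgf6, a ligand largely restricted to muscle and named here after its values were seen, held 38.8 ± 42.3 and 143 ± 32.8 CPM on day 10 (1.89, SE 0.83, adjusted p = 0.068) and was called in the mean of the 5 days (2.57, SE 0.38, adjusted p = 8.0e-07).

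Of 17 co-receptors and surface partners tested, 2 were called higher and 3 lower on day 10 (median -0.44), shares close to the 9.91% and 13.4% of all genes. Gpc3, a heparan sulfate proteoglycan, held 1.96 ± 2.44 CPM with MyoD alone and 95.1 ± 13.1 CPM with F/R/C (5.54, SE 0.75, adjusted p = 2.2e-06, edgeR's quasi-likelihood test). It averaged 508 CPM in Pax7-positive iMPCs and 0.178 and 0.124 CPM in bulk and sorted myoblasts. Flrt2, a membrane protein that binds FGF receptors, was lower by 2.48 (266 ± 49.1 against 47.8 ± 4.56 CPM, adjusted p = 1.5e-07), and the proteoglycan Gpc6 by 1.23 (adjusted p = 0.043). The syndecan Sdc3, a co-receptor of satellite cells, was called lower in the mean of the 5 days (-1.49, SE 0.28, adjusted p = 2.3e-05) and had an adjusted p of 0.052 on day 10. Ncam1, the most abundant of the list (358 TPM), was at -0.44 (SE 0.40, adjusted p = 0.39).

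Of 20 adaptors and members of the RAS and ERK cascade inside the cell, 0 were higher and 3 lower on day 10 (median -0.29), beside 9.91% and 13.4% of all genes, so the count is near the background. The 3 were Shc1, an adaptor (-1.43, SE 0.25, adjusted p = 4.9e-05, edgeR's quasi-likelihood test), Rasa1, a GTPase-activating protein of RAS (-1.30, SE 0.29, adjusted p = 7.3e-04), and Mapk3, which encodes ERK1 (-1.13, SE 0.31, adjusted p = 0.0048). Map2k1, which encodes MEK1 and was the most abundant (192 TPM), was at 0.96 (SE 0.20, adjusted p = 3.6e-04), just under 2-fold.

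Of 13 other feedback inhibitors, 2 were higher and 5 lower on day 10 (median -0.53), beside 9.91% and 13.4% of all genes. Dusp5, a nuclear ERK phosphatase, was lower by 2.76 (71.2 ± 23.6 against 10.5 ± 4.51 CPM, SE 0.49, adjusted p = 5.4e-05, edgeR's quasi-likelihood test), and Spred3, a relative of the Sprouty genes, by 2.69 (adjusted p = 1.3e-05). Dusp2 and Dusp9, phosphatases of the same family as Dusp6, were higher by 1.51 (adjusted p = 0.0042) and 1.37 (adjusted p = 0.01). Dusp1, the most abundant (89.0 TPM), was at -0.97 (SE 0.40, adjusted p = 0.053). Dusp6, at 0.07 on that day, thus stood between relatives called in both directions.

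Of 15 other ERK response genes, 0 were higher and 6 lower on day 10 (median -0.72), beside 9.91% and 13.4% of all genes. The largest values were those of Lif, a cytokine (-2.95, SE 0.84, adjusted p = 0.0056, edgeR's quasi-likelihood test), Plaur, the urokinase receptor (-2.60, SE 0.51, adjusted p = 1.7e-04), Fosl1, an AP-1 factor (-2.51, SE 0.82, adjusted p = 0.015), and Ier3, an early response gene (-2.43, SE 0.64, adjusted p = 0.003). Ccnd1, which encodes cyclin D1 and was the most abundant (235 TPM), was lower by 1.75 (595 ± 223 against 177 ± 40.0 CPM, SE 0.43, adjusted p = 0.0018), while the 12 proliferation markers had a median log2 fold change of 1.47. In Pax7-positive iMPCs against Pax7-positive myoblasts 8 of the 15 were higher and 1 lower, beside 12.4% and 17.6% of all genes (median 1.01, against -0.07 over all genes). In the bulk cells 7 were higher and 2 lower, beside 10.9% and 8.7% (median 0.25, against 0.01).

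Of 11 tested genes for making and trimming heparan sulfate, 0 were higher and 4 lower on day 10 (median -0.58), beside 9.91% and 13.4% of all genes. They were Sulf2, an extracellular sulfatase (-2.03, SE 0.54, adjusted p = 0.0031, edgeR's quasi-likelihood test), the chain polymerase genes Ext1 (-1.01, SE 0.23, adjusted p = 7.8e-04) and Ext2 (-1.26, SE 0.19, adjusted p = 9.2e-06), and the core protein gene Hspg2 (-1.22, SE 0.28, adjusted p = 0.001), the most abundant (219 TPM).

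Over the 15 group means of log2 CPM, the members did not move as 1 block. Fgfr1 ran with Etv4 (Pearson r = 0.80) and Fgfr2 with Spry4 (0.81), while Fgfr4 ran against Etv4 (-0.82), Fgfr2 (-0.70) and Fgfr1 (-0.65). Dusp6 and Etv5, both common readouts of ERK, had r = 0.62, Spry2 had 0.65 with Spry4 and 0.65 with Etv5, and Spry1 and Dusp6 had -0.59. Among other genes tested with at least 1 CPM on average, the patterns most like that of Fgfr4 were those of Coro2b (r = 0.98) and Znrf3 (0.949). For Fgfr1 they were Irak4 (0.962) and Dab2 (0.96), for Fgfr2 Vapb (0.978) and Fam84b (0.97), for Fgfr3 Myoz2 (0.945) and Hectd2os (0.943), and for Etv4 Plscr1 (0.971) and Uba6 (0.966). The other members had less close partners: Spry4 had Ppbp (0.931) and Srpx (0.929), Spry1 Tceal9 and Adora1 (0.911 each), Etv5 Snx5 (0.91) and Mrps36 (0.869), Dusp6 Nudt4 (0.894) and Syt11 (0.888), and Spry2 Sgip1 (0.884) and Tmem260 (0.861). The groups share arms and days and are not independent, so these values only describe.

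The spread between replicates differed by gene. The median coefficient of variation over the 15 groups was 9.4% for Spry2, 10.5% for Etv5, 12.8% for Spry1, 18.2% for Fgfr1, 18.6% for Spry4 and 21.5% for Dusp6. It was 32.7% for Etv4, 37.1% for Fgfr3, 46.5% for Fgfr4 and 51.8% for Fgfr2, so small changes of the latter could not be seen. When the 15 groups are ordered by mean CPM, most neighbours overlap. For Fgfr4, 3 of 14 neighbouring pairs were separate: Pax7-positive iMPCs from day 10 with F/R/C, day 8 from day 6 with F/R/C, and day 2 of MyoD alone from MEFs. For Fgfr2, Fgfr3, Spry1, Spry2, Spry4 and Etv5 1 pair was separate, and for Fgfr1, Dusp6 and Etv4 0.

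At the level of transcripts, Fgfr4-201 held 98.9% of the Fgfr4 reads over all libraries. Reads of Spry1 were divided between Spry1-203 (67.7%) and Spry1-201 (30.2%), and the division varied between libraries of 1 group: Spry1-201 took 9.53% to 46.2% on day 2 of MyoD alone. It took 70.6% to 93.4% on day 8 of MyoD alone and at most 2.94% in bulk iMPCs. No test of transcript use was run.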

How the data were processed

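Libraries were poly-A selected, stranded and sequenced from a single end, per the labels' protocols. The authors deposited estimated counts and TPM per transcript, per the file headers in the layout of kallisto (kallisto 0.44, Trimmomatic 0.36, edgeR 3.28 and bcl2fastq 2.19 with GRCm38.p6, per the submitters' processing notes). The deposited estimated counts carry no scaling for depth, and kallisto splits ambiguous reads among transcripts. The deposited TPM values are corrected for transcript length. Of 121843 transcripts, 121104 matched GENCODE M21 and held 99.36% to 99.78% of each library's reads. Estimated counts were summed per gene and rounded, and TPM were summed per gene.

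All 45 libraries were fitted with edgeR 4.0.16 in R 4.3.3 (TMM, filterByExpr by group, glmQLFit and glmQLFTest, 1 coefficient per group, no block, 30 residual degrees of freedom). Standard errors come from the log2 fold change and its F statistic. DESeq2 1.42.0 and the other alternatives are in the closing section. In simulated data for day 10 of F/R/C against MyoD alone, 160 of 17325 genes were called, 154 of them among the 200 changed 4-fold (77%). Replicates differed by more than sampling noise (chi-square per degree of freedom at least 26.2).

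Replicate numbers, from the titles, paired samples where the deviations of all same-numbered pairs correlated above 0.1. This held between the arms on day 2 (0.346 to 0.375), day 4 (0.241 to 0.332) and day 6 (0.223 to 0.362) and between days 2 and 10 of MyoD alone (0.201 to 0.416).

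The members, marker lists and pathway lists were chosen with earlier results of these data known. Other genes were named by a rule: from each pathway list up to 4 called genes of at least 1 CPM with the largest change on day 10, and the gene of highest mean TPM. For patterns, they were the 2 genes most correlated with each member. Some marker genes are not reported here.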

Additional observations from a re-analysis of the deposited data

Results flagged for a closer look

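For 2 results the same contrast differed between conditions by a test of the difference itself. For Fgfr4, the F/R/C effect on day 10 exceeded that on day 2 by 2.76 log2 units (SE 0.80, adjusted p = 0.03, edgeR's quasi-likelihood test), with all F/R/C libraries above all libraries of MyoD alone on both days. The Fgfr4 call was lost in 6 of the fits that left out 1 library, with adjusted p up to 0.14. For Etv5, the step from bulk to Pax7-positive cells in iMPCs minus that in myoblasts was 0.59 (SE 0.23, adjusted p = 0.041, edgeR's quasi-likelihood test). Etv5 was lower in the sorted cells in both, at -0.49 in iMPCs and -1.08 in myoblasts, without overlap in either. This difference is under 2-fold and was not counted as a call.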

How the results depend on the processing

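Of 46 calls of the 10 genes over 19 comparisons, 22 held under every alternative run, 11 of them among the 15 calls of Fgfr4. DESeq2 kept 44, RLE factors 44, no filter on low counts 40, a fit of only the groups compared 36 and the replicate block 46. Fits that left out 1 library kept the call in 265 of 330 cases, and 1 turned: Fgfr2 in bulk iMPCs against bulk myoblasts, -0.44 without bulk iMPC replicate 2 (up to 2.89, without replicate 3).

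The larger moves in the number of members called were as follows. Smaller ones are left out here, such as Spry1 gained by DESeq2 for F/R/C against MyoD alone on day 10. With no minimum fold change it was 3, 4 and 5 for F/R/C against MyoD alone on days 2, 4 and 6, 7 for the mean, 6 for MyoD alone day 2 against MEFs, 1 for bulk iMPCs against day 10 with F/R/C, 2 for Pax7-positive iMPCs against Pax7-positive myoblasts, 5 for Pax7-positive against bulk iMPCs and 1 for the sorting difference. With the replicate block it was 2 for F/R/C on day 4, 2 for its difference between days 10 and 2 (Fgfr3 added, -2.13, adjusted p = 0.037), 2 for MyoD alone day 10 against day 2 and 1 for the sorting difference (Fgfr2, -2.97, adjusted p = 0.04). The block changed no other call. For MyoD alone day 10 against day 2 the numbers paired samples (0.201 to 0.416). For the sorting difference and the F/R/C difference between days 10 and 2, pairing over all their groups was not checked. With only the groups compared it was 2 for F/R/C on day 4, 3 for its difference between days 10 and 2, 1 for bulk iMPCs against day 10 with F/R/C, 1 for bulk iMPCs against bulk myoblasts and 0 for Pax7-positive against bulk myoblasts. Without the filter it was 1 for F/R/C on day 8 and 0 for MyoD alone day 10 against day 2. With DESeq2 it was 2, 2 and 1 for the difference between days 10 and 2, MyoD alone day 10 against day 2 and the sorting difference.

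Leaving out 1 library gave 0 to 1, 1 to 2, 0 to 2, 1 to 3 and 2 to 4 calls for F/R/C on days 2 to 10, 2 to 2 for the mean and 0 to 1 for its change. Against MEFs it gave 3 to 5 and 3 to 5 for MyoD alone on days 2 and 10, and 3 to 4 and 5 to 7 with F/R/C. Day 10 against day 2 gave 0 to 1 and 1 to 3. The progenitor comparisons gave 0 to 1 (bulk iMPCs against day 10 with F/R/C), 1 to 4 (against bulk myoblasts), 1 to 2 (sorted iMPCs against sorted myoblasts), 2 to 4 (sorted against bulk iMPCs), 1 to 4 (sorted against bulk myoblasts) and 0 to 1 (the sorting difference).

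The group with the highest level was the same by TPM and CPM for 7 of 10 genes. Depth limits Fgfr4 in MEFs (0 to 6 reads a library), Fgfr3 in MEFs (5 to 12 reads) and Fgfr2 in progenitors and myoblasts. Fgfr2 held 0 to 28 reads in Pax7-positive iMPCs, 15 to 17 in Pax7-positive and 8 to 47 in bulk myoblasts, and 9 to 402 in bulk iMPCs. Counting intervals cover counting error only. The cause of the changes with settings was not tested.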

Other observations

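Replicate 2 of MyoD alone held the lowest level of the 3 libraries on all 5 days for Fgfr1, Spry2, Dusp6, Etv4 and Etv5, and on 4 of 5 days for Spry4, while it held the highest Fgfr3 on all 5 days. The same libraries had the lowest summed fibroblast and proliferation markers and the highest summed differentiation and progenitor markers of their group on all 5 days. On day 10 the fibroblast sum was 3649.4 TPM against 9530.7 and 8431.7 TPM, the proliferation sum 42.4 against 359 and 364 TPM, and the differentiation sum 41296.0 against 20156.0 and 13880.0 TPM. With F/R/C, replicate 2 was lowest on all 5 days for Fgfr1 and Spry2 and highest on all 5 days for Spry4, and its fibroblast sum was also lowest on all 5 days. The part of cell composition in these levels was not tested.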
